A study of Mus musculus with 4 samples.

Results

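Transcripts of 10 genes of insulin and insulin-like growth factor (IGF) signaling were followed in articular cartilage of the mouse hip and knee: Insr, Igf1, Igf1r, Igf2r, Irs1, Irs2, Pik3ca, Pik3r1, Akt2 and Foxo1. They were taken by symbol from 50686 gene identifiers counted in the hip and 54838 in the knee, and all 10 were present and above the count filter in both joints. In this pathway, insulin and IGF ligands bind receptor tyrosine kinases, and insulin receptor substrates then recruit phosphoinositide 3-kinase (PI3-kinase). The lipid it makes activates AKT kinases, which drive glucose uptake and protein synthesis and keep FOXO transcription factors out of the nucleus. In cartilage, IGF1 is known as a growth and matrix-synthesis signal for chondrocytes, and in skeletal muscle and fat insulin drives glucose uptake.

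The 4 poly-A RNA libraries came from male mice that all carried floxed alleles of Cbfb, which encodes the partner subunit of RUNX transcription factors, and each condition had 1 library. The hip control was from Cbfb f/f mice, labelled as untreated and without Cre (the study's text calls these controls WT in places), and the hip tamoxifen (TMX) library was from TMX-injected Cbfb f/f;Col2a1-CreERT mice, in which a collagen II promoter drives the inducible Cre. The age of the hip mice is written as 6 weeks in some places and 2 months in others, with TMX from week 2. Both knee libraries were from Cbfb f/f;Aggrecan-CreERT mice 12 weeks old, with an aggrecan-driven Cre, injected with oil as the control or with TMX from week 6 or week 8, as different places give it. The study's text describes the hip samples as articular cartilage alone and the knee samples as cartilage with bone. Cre, TMX and genotype therefore differ together within the hip pair. Between the pairs, joint, tissue taken, age, Cre line and kind of control differ together and cannot be told apart. How many mice went into a library, and whether any were pooled, is not given.

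Values below are read counts per gene, the same scaled to an equal total on genes in every library (CPM, the usual scale), and the log2 ratio of the TMX library over its control after TMM normalization within the joint. With 1 library per condition no replicate error or p-value exists, and the 95% Clopper-Pearson intervals given cover counting error only. A gene was called higher or lower where the pair held at least 10 counts, the log2 ratio reached 1 in size and the interval excluded 0. Cbfb itself had 2548 counts in the hip control and 2946 in the hip TMX library, a log2 ratio of 0.41 (0.33 to 0.48) that was -0.21 with the length and GC trend described below removed. In the knee it had 3796 and 4572 counts, a log2 ratio of -0.07 (-0.13 to -0.01) that was 0.11 when scaled by library size alone and 0.09 with the trend removed. No counts per exon were analysed here, so these counts do not show whether Cbfb was deleted, and "TMX library" below means the library labelled as TMX-injected. The 20 skeletal muscle markers took 19.1% and 19.7% of the hip counts (control before TMX, as in all pairs of values here) and 1.41% and 2.95% of the knee counts, while 13 chondrocyte markers took hip shares of 0.0191% and 0.00856% and knee shares of 0.567% and 0.237%. None of the markers of the 11 cell type lists with a matched identifier was at 0 in any library. Col2a1, the main collagen of cartilage, had hip levels of 9.20 and 6.59 CPM and knee levels of 2550 and 869 CPM, so cartilage transcripts were a small share of the hip libraries, as against those of muscle. In bulk RNA, fewer cells of a type and less RNA per cell cannot be told apart.

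In the hip, 7 of the 10 genes were higher in the TMX library by this rule and 0 were lower, where 36.5% of all 19856 genes tested were called, 20.2% higher and 16.3% lower. Those 7 genes were Pik3r1, Insr, Foxo1, Pik3ca, Irs2, Igf1r and Irs1, and their folds ran from 12.2 to 2.24. The median log2 ratio over all 10 was 1.38, beside 0.01 over all genes tested. Igf2r (log2 ratio 0.65), Igf1 (-0.01) and Akt2 (-0.65) were not called. In the knee, Irs1 alone was called higher, 1 of 10 genes, and 0 were lower, where 15.8% of 21131 genes were called, 9% higher and 6.81% lower. The median of the members there was 0.19, beside 0.02 over all genes. The plot of CPM by library shows the contrast between the joints gene by gene.

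**Figure D1:**
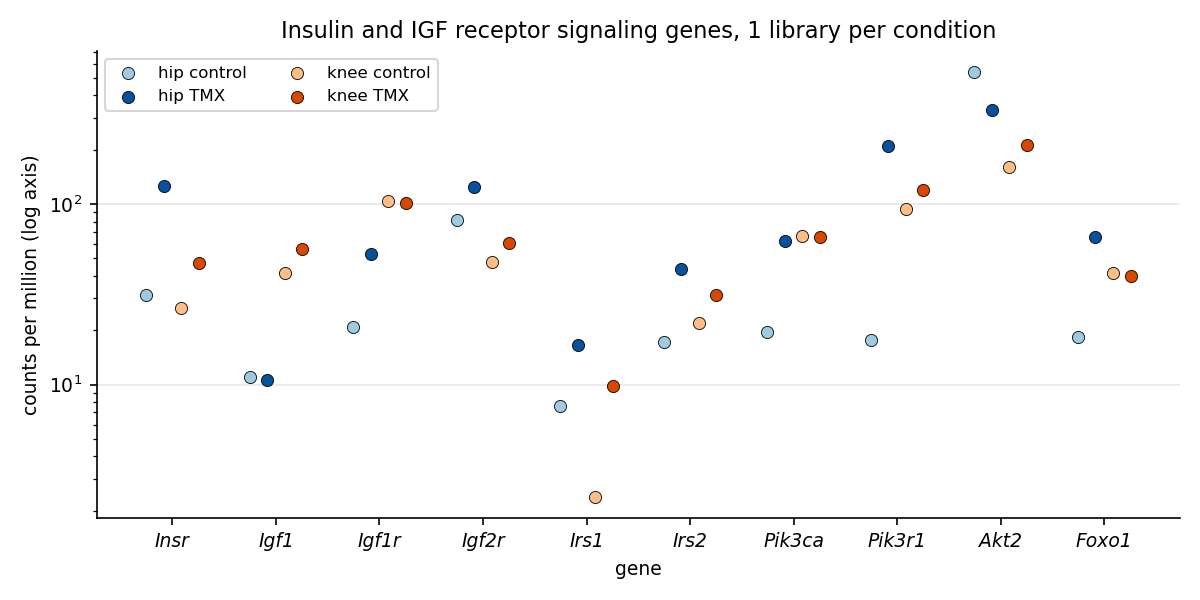
CPM (log axis) of each of the 10 genes in the hip control, hip TMX, knee control and knee TMX libraries, with 1 point per library and no error bar because each condition has 1 library. Pik3r1 goes from 17.7 to 209.6 CPM between the hip libraries, Irs1 from 2.39 to 9.86 CPM between the knee libraries, and Akt2 lies at 540 and 333 CPM in the hip.

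Transcript length has to be read beside these ratios. All 10 genes lie in the fifth of genes with the longest transcripts (5900 bases and up in the hip, 5723 and up in the knee), with a median transcript length of 8808 bases against 3684 over the hip genes tested and 3466 over those of the knee. In the hip the log2 ratio went up with length across genes (Spearman rho 0.23 over 19585 genes) and down with GC content (rho -0.38), and in the knee with length (rho 0.24 over 20829 genes) but hardly with GC content (rho 0.03). These are correlations across genes within a pair of libraries, and genes are not independent replicates. In the fifth with the longest transcripts, 42.6% of the hip genes were called, 33.7% higher and 8.83% lower, and 12.1% of the knee genes, 10.1% higher and 2.02% lower. The median log2 ratios there were 0.54 and 0.21. When median ratios by length and by GC content were subtracted (written below as with the trend removed), 5 of the 10 genes were still called higher in the hip and 1 lower, where 13.8% and 15.8% of all genes were, and the members' median was 0.92. With the median in place of the longest transcript of each gene, 6 were called higher and 1 lower, where 14.2% and 15.5% of all genes were, and the members' median was 1.24. In the knee the corrected median was -0.04 with 1 gene called higher, where 9.47% of all genes were, and 0 lower, where 5.19% were. Whether length, GC content or RNA integrity sets part of any single ratio was not tested. The calls that ended under both versions were those of Pik3ca and Irs1, the gene called lower under both was Igf1, and the gene called higher by median transcript only was Igf2r. Values given below as with the trend removed use the longest transcript.

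**Figure D2:**
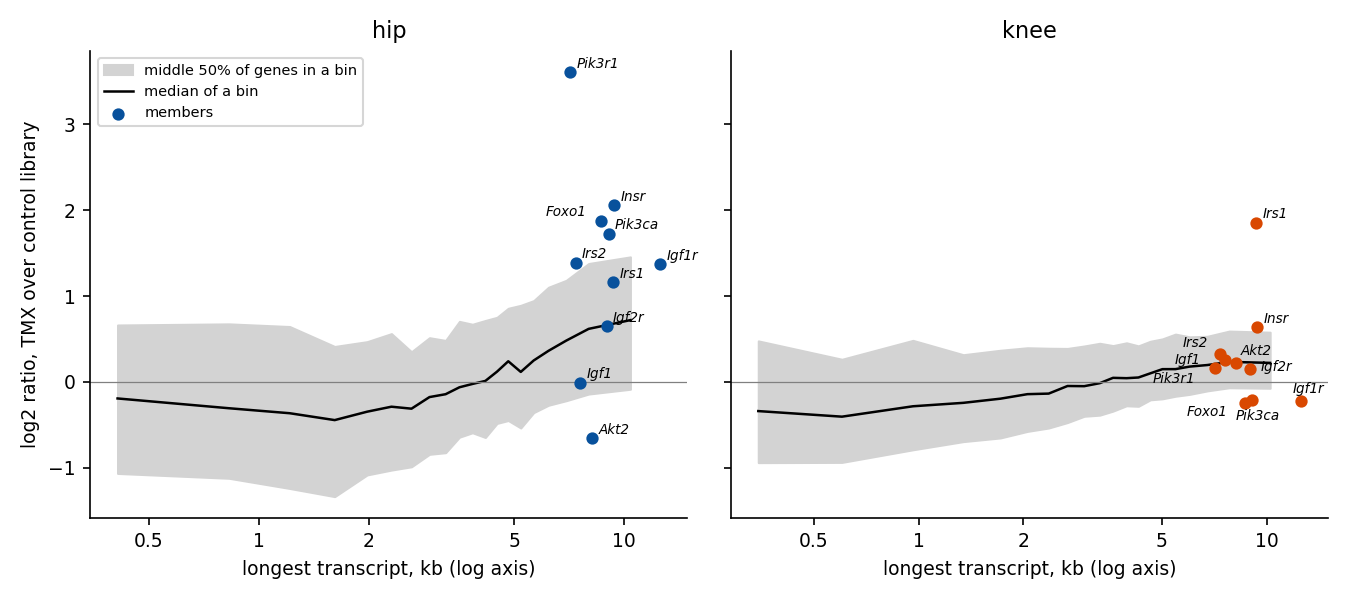
Log2 ratio of TMX over control (y axis) against the longest transcript in kb (log x axis), for the hip and the knee. The line and grey band are the median and the middle 50% of genes in 20 bins of equal gene number, and the points are the 10 members: in the hip Pik3r1 (3.61) and Insr (2.06) lie above the band and Akt2 (-0.65) below it, and in the knee Irs1 (1.85) lies furthest above.

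IGF1 is the secreted growth factor of the pathway. Igf1 (ENSMUSG00000020053, GRCm39 chr10:87693642-87772904, plus strand) had 422 counts in the hip control library and 366 in the TMX library, which are 11.0 and 10.6 CPM. The hip libraries did not differ beyond counting error, with a log2 ratio of -0.01 (-0.21 to 0.20). In the knee it had 1430 and 2166 counts, or 41.7 and 56.7 CPM, a log2 ratio of 0.26 (0.16 to 0.36). The GC content of its longest transcript, 38.7%, is the lowest among the members, and with the trend removed its hip ratio was -1.46, which would be called lower, while that of the knee was 0.10.

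Insr encodes the insulin receptor, a tyrosine kinase. Insr (ENSMUSG00000005534, GRCm39 chr8:3172061-3329647, minus strand) had 1206 and 4375 counts in the hip, or 31.3 and 127 CPM. It was 4.16-fold higher in the TMX library, a log2 ratio of 2.06 (1.96 to 2.15), and 6.85% of the genes tested had a larger one. In the knee its 915 and 1803 counts, 26.7 and 47.2 CPM, gave a log2 ratio of 0.64 (0.52 to 0.76), under the size needed for a call. With the trend removed the ratios were 1.35 in the hip and 0.42 in the knee (2.53 and 0.68 by median transcript), so the direction was the same in both joints with and without it.

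The IGF1 receptor is the close relative of the insulin receptor. Igf1r (ENSMUSG00000005533, GRCm39 chr7:67601518-67883416, plus strand), with the longest transcript of the members at 12559 bases, had 806 and 1823 counts in the hip, or 20.9 and 52.7 CPM. That is a log2 ratio of 1.37 (1.25 to 1.497), and 1.05 with the trend removed. In the knee the levels lay close together, 3584 and 3877 counts or 105 and 101 CPM, a log2 ratio of -0.23 (-0.29 to -0.16). Igf2r (ENSMUSG00000023830, GRCm39 chr17:12901293-12988614, minus strand) encodes the receptor that carries IGF2 and mannose-6-phosphate-tagged enzymes to lysosomes and has no tyrosine kinase. Its hip counts were 3133 and 4278 (81.4 and 124 CPM) and its knee counts 1642 and 2314 (47.9 and 60.5 CPM), with log2 ratios of 0.65 (0.58 to 0.71) and 0.16 (0.06 to 0.25). Neither reached the size of a call, and with the trend removed they were 0.32 and -0.14. The trend by median in place of longest transcript gave 1.15, which would be called, and 0.33, so both the call and the knee direction depended on the transcript length used.

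Counts of the receptor genes can also be set against each other within a library, where the scaling between libraries cancels. The length and GC trend does not cancel in such shares, here and below, because the genes of a pair differ in length and GC content. Insr gave 59.9% (95% exact interval 57.8 to 62.1%) of the counts of Insr plus Igf1r in the hip control and 70.6% (69.4 to 71.7%) in the hip TMX library. In the knee the share was 20.3% (19.2 to 21.5%) in the control and 31.7% (30.5 to 33.0%) in the TMX library. The Insr share was thus higher in the TMX library of both joints beyond counting error. Per base of transcript, Insr stood at 2.002 and 3.21 times Igf1r in the hip and at 0.342 and 0.622 times Igf1r in the knee.

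Irs1 and Irs2 encode the docking proteins that insulin and IGF1 receptors phosphorylate and that bind PI3-kinase. Both were called higher in the hip, and their promoter windows are shown because they alone among the 9 members with a window hold the insulin response sequence CAAAACA, a motif described in promoters of insulin-repressed genes. The windows run from 250 bases before to 50 bases after the start site (RefSeq, GRCm38.p6, printed 5′ to 3′ on the gene's strand), and capitals mark the motif, which reads TGTTTTG on this strand.
Irs1, chr1:82291390-82291689, minus strand: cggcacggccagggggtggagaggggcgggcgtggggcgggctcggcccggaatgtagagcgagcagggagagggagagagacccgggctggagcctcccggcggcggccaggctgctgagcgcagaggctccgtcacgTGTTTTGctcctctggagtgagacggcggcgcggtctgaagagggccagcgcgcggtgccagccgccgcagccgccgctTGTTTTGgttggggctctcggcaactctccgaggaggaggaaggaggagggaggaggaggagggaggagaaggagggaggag
Irs2, chr8:11008880-11009179, minus strand: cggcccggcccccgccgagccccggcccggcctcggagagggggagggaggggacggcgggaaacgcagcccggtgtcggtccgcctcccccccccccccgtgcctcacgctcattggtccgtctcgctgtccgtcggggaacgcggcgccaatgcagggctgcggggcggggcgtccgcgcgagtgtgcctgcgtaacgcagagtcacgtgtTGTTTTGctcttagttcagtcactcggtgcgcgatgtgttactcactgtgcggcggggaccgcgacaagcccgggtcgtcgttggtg
The motif begins at base -111 and base -32 of the Irs1 window and at base -37 of the Irs2 window, counted from the start site, and 6.28% of 32851 windows in the table hold it on either strand. A FOXO core, TGTTTAC on either strand, was in 0 of the 13 member windows and in 3.65% of all windows. The table held 13 windows for 9 of the 10 genes, and none for Insr. A match is a string of letters and does not show that a factor binds there.

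Irs1 (ENSMUSG00000055980, GRCm39 chr1:82210822-82269338, minus strand) was the member with the fewest counts per base in 3 of the 4 libraries. It had 292 and 570 counts in the hip, or 7.59 and 16.5 CPM, a log2 ratio of 1.16 (0.96 to 1.37), and 0.78 with the trend removed, which would no longer be called. In the knee it went from 82 to 377 counts, or 2.39 to 9.86 CPM, a 3.62-fold rise with a log2 ratio of 1.85 (1.51 to 2.22) that 3.63% of the genes tested exceeded. With the trend removed the knee ratio was 1.58. Irs1 was the member that was called higher in both joints.

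Irs2 (ENSMUSG00000038894, GRCm39 chr8:11034681-11059499, minus strand) had 660 and 1508 counts in the hip, or 17.2 and 43.6 CPM, a log2 ratio of 1.39 (1.26 to 1.52). Its transcript has the highest GC content of the members, 59.2%, and with the trend removed its hip ratio was 1.499. In the knee, 750 and 1192 counts, 21.9 and 31.2 CPM, gave a log2 ratio of 0.33 (0.20 to 0.46), which the trend removal took to -0.0022. Of the counts of both genes, Irs1 gave 30.7% (27.8 to 33.7%) and 27.4% (25.5 to 29.4%) in the hip libraries, with overlapping intervals. With the trend removed the hip ratios were further apart, 0.78 for Irs1 and 1.499 for Irs2. In the knee the Irs1 share was 9.86% (7.92 to 12.1%) in the control and 24.03% (21.9 to 26.2%) in the TMX library. The balance of the substrate genes thus moved beyond counting error in the knee.

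Pik3ca and Pik3r1 encode the catalytic and the regulatory alpha subunit of PI3-kinase. Pik3ca (ENSMUSG00000027665, GRCm39 chr3:32451820-32522635, plus strand) had 750 and 2165 counts in the hip, or 19.5 and 62.6 CPM, a log2 ratio of 1.73 (1.61 to 1.85). With the trend removed that ratio was 0.43 and not called, the largest move toward 0 among the members called higher in the hip. In the knee it had 2276 and 2499 counts, or 66.4 and 65.4 CPM, a log2 ratio of -0.20 (-0.29 to -0.12).

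Pik3r1 (ENSMUSG00000041417, GRCm39 chr13:101817071-101904725, minus strand) had the largest hip ratio of the members. It had 681 counts in the control and 7247 in the TMX library, or 17.7 and 209.6 CPM, which is 12.2-fold, a log2 ratio of 3.61 (3.50 to 3.72) that 1.47% of the genes tested exceeded. With the trend removed it was 2.87, and 3.94 by median transcript, above the uncorrected value. In the knee the counts were 3237 and 4585, or 94.5 and 120 CPM, a log2 ratio of 0.16 (0.10 to 0.23), and 0.0020 with the trend removed (0.28 by median transcript).

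The table of start sites held a pair of windows for Pik3r1, shown because the gene is known to make a long and shorter regulatory subunits from separate starts, and because counts per gene do not tell these apart. Capitals mark the GC box, GGGCGG on either strand, which is in 35.7% of all windows.
Pik3r1, upstream start, chr13:101768168-101768467, minus strand: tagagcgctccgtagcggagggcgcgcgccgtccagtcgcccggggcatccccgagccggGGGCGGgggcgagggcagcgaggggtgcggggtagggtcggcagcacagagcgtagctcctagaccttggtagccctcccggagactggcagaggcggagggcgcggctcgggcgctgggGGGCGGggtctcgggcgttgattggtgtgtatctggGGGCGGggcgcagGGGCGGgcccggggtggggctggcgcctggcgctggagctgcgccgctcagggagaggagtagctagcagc
Pik3r1, downstream start, chr13:101692581-101692880, minus strand: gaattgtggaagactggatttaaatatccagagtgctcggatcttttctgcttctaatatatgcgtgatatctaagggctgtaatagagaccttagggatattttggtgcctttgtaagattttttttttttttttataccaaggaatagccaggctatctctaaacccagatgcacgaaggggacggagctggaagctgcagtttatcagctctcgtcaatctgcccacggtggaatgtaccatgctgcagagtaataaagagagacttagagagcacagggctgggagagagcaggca
The upstream window holds the box 4 times and is 75.7% G and C, and the downstream window holds it 0 times and is 43.7% G and C. A GC box was in a window of 8 of the 9 genes matched. Which start gave the additional hip reads cannot be read from counts per gene.

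Within a library, Pik3ca gave 52.4% (49.8 to 55.0%) of the counts of the subunit pair in the hip control and 23.0% (22.2 to 23.9%) in the hip TMX library. In the knee the share was 41.3% (40.0 to 42.6%) and 35.3% (34.2 to 36.4%). The share of the catalytic subunit gene was lower in the TMX library of both joints beyond counting error, and further so in the hip. The plot of shares sets this pair beside the others.

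**Figure D3:**
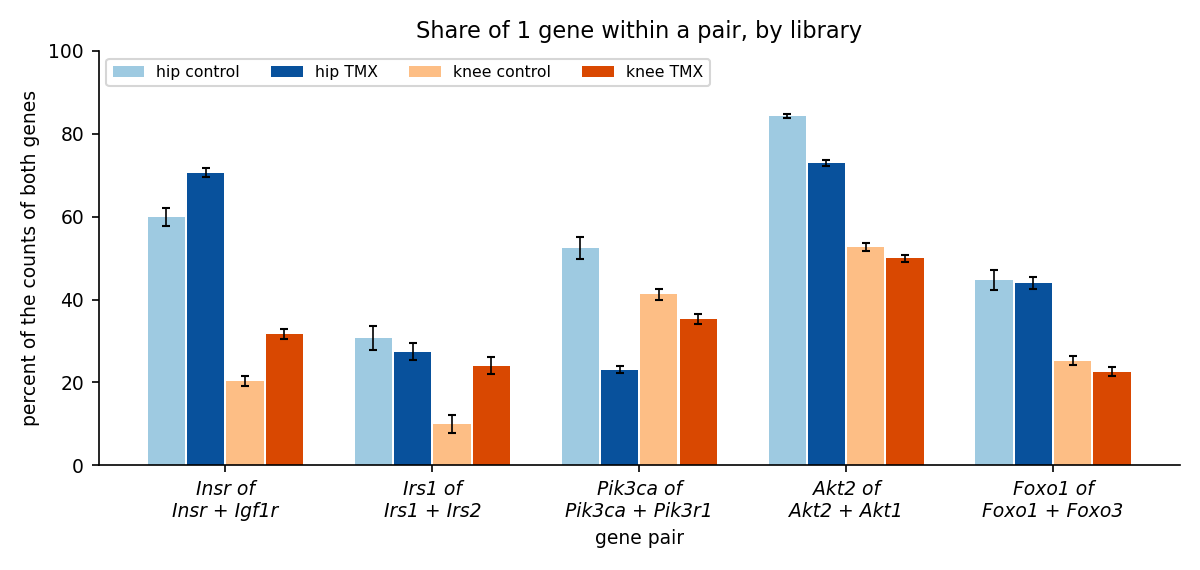
Percent of the summed counts of 2 genes that falls on the first of them (y axis), for 5 gene pairs in the 4 libraries, with exact 95% binomial intervals as error bars that cover counting error only. The Insr share is higher and the Pik3ca share lower in the TMX library of each joint, the Irs1 share is higher in the knee TMX library (24.03% against 9.86%), and the Akt2 share is lower in the hip TMX library (72.9% against 84.2%).

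Akt2 encodes the AKT kinase most tied to insulin-driven glucose uptake. Akt2 (ENSMUSG00000004056, GRCm39 chr7:27284378-27340262, plus strand) was the member with the highest level per base in all 4 libraries, and the only one lower in the hip TMX library beyond counting error. Its hip counts were 20760 and 11507, or 540 and 333 CPM, a log2 ratio of -0.65 (-0.69 to -0.62). In the knee, 5528 and 8148 counts, 161 and 213 CPM, gave one of 0.22 (0.17 to 0.27). Neither was called, and with the trend removed the ratios were -0.81 and -0.08, so the knee direction turned.

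Akt1, the most widely expressed AKT gene, had hip counts of 3891 and 4271 and knee counts of 4977 and 8183. Akt2 therefore gave 84.2% (83.8 to 84.7%) of the counts of the pair in the hip control and 72.9% (72.2 to 73.6%) in the hip TMX library, and 52.6% (51.7 to 53.6%) and 49.9% (49.1 to 50.7%) in the knee. The Akt2 share was lower in both TMX libraries beyond counting error, by far more in the hip. Of the 4 windows listed for Akt2, 1 held the RUNX core, TGTGGT on either strand, and is shown because RUNX factors are the partners of Cbfb. It was the only member window of 13 with that string, which is in 16.8% of all windows, and capitals mark the matches, which read ACCACA on this strand.
Akt2, chr7:27605547-27605846, plus strand: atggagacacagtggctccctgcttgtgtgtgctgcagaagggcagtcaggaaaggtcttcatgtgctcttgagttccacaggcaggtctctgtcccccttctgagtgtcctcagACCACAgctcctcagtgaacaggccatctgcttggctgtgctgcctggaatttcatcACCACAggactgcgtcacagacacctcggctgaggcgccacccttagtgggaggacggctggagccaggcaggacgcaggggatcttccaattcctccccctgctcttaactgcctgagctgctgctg
The matches begin at base -135 and base -78 from the start site.

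Foxo1 encodes a transcription factor that AKT phosphorylates and inhibits, and that induces genes of fasting metabolism and muscle protein breakdown. Foxo1 (ENSMUSG00000044167, GRCm39 chr3:52175757-52260642, plus strand) had 709 and 2273 counts in the hip, or 18.4 and 65.7 CPM, a log2 ratio of 1.88 (1.76 to 2.002), and 1.34 with the trend removed. In the knee its 1425 and 1518 counts, 41.6 and 39.7 CPM, gave a log2 ratio of -0.25 (-0.35 to -0.14). Foxo1 was thus 3.67-fold higher in the hip TMX library and slightly lower in that of the knee. Its share of the counts of Foxo1 plus Foxo3 did not differ between the hip libraries beyond counting error, at 44.7% (42.2 to 47.2%) and 44.0% (42.6 to 45.3%), and was 25.2% (24.1 to 26.4%) and 22.6% (21.6 to 23.7%) in the knee. The shares keep the length and GC trend. With it removed, the hip ratio of Foxo3 was 1.77, above the 1.34 of Foxo1.

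**Figure D4:**
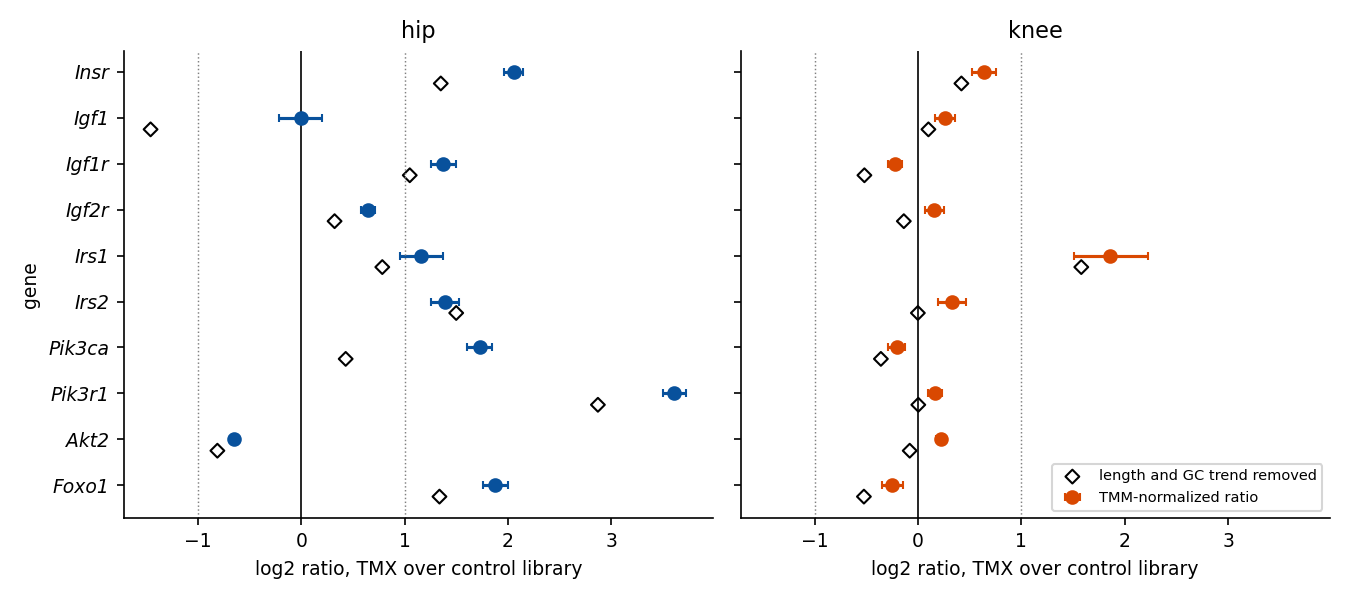
Log2 ratio of TMX over control (x axis) for each of the 10 genes in the hip and the knee. Filled points with bars are the TMM-normalized ratios and their 95% counting intervals, open diamonds the ratios with the length and GC trend removed, and dotted lines a log2 ratio of 1 in size: 7 filled points lie past it in the hip and 1 in the knee.

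Ordered by CPM per kilobase of longest transcript, the members kept Akt2 at the top in every library, with hip levels of 66.1 and 40.7 and knee levels of 19.7 and 26.1. In the hip control Igf2r (9.10) and Insr (3.34) followed, and the levels of Pik3r1, Irs2, Pik3ca and Foxo1 (2.49 to 2.13) overlapped from each to the next within their Poisson intervals. In the hip TMX library Pik3r1 stood second (29.5), and Igf2r (13.8) and Insr (13.5) overlapped. In the knee the order began with Akt2, Pik3r1 and Igf1r in both libraries, with Igf1r at 8.33 and 8.08. Irs1 was lowest in the hip control and in both knee libraries (0.812, 0.256 and 1.06), and Igf1 was lowest in the hip TMX library (1.39).

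Beyond counting error, whatever the size, 8 of the 10 genes were higher in the hip TMX library and 1 lower, where 37.3% and 33.7% of all genes were (60% and 21% of those with the longest transcripts). In the knee 7 were higher and 3 lower, where 31.9% and 29.7% were (52.1% and 20.2% of those with the longest transcripts). Insr, Igf2r, Irs1, Irs2 and Pik3r1, 5 of the 10, were higher in both joints, and 4 went in opposite directions (Igf1r, Pik3ca, Akt2 and Foxo1), where of 17594 genes tested in both joints 18.1% were higher in both and 20.5% opposite. Scaled by library size alone, Igf1r (-0.11 to 0.02), Pik3ca (-0.11 to 0.06) and Foxo1 (-0.17 to 0.04) had knee intervals that included 0. With the trend removed, 8 members were higher and 2 lower beyond their intervals in the hip, where 34.5% and 33.1% of all genes were, but 3 were higher and 5 lower in the knee, where 29.3% and 30.3% were. Then 2 genes, Insr and Irs1, were higher in both joints, Akt2 was lower in both, and 5 went in opposite directions (Igf1, Igf1r, Igf2r, Pik3ca and Foxo1), where 14.4%, 13% and 20% of all genes did these, while Irs2 and Pik3r1 did not differ in the knee beyond counting error. These counts hold for the trend by longest transcript. By median transcript, 4 genes were higher in both joints (Insr, Igf2r, Irs1 and Pik3r1), 0 lower in both and 3 opposite (Igf1r, Pik3ca and Foxo1), where 14.9%, 12.1% and 20.2% of all genes were, and the knee ratio of Pik3r1 was 0.28 (0.22 to 0.35). Without that removal, the hip ratios of those higher in both ran from 0.65 to 3.61, and those of the knee from 0.16 to 1.85. With 1 pair of libraries per joint, the difference between the joints was not tested.

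Markers of several cell types differed between the libraries of a pair. In the hip, of 20 skeletal muscle markers 3 were called higher and 4 lower, with a median log2 ratio of 0.01 and a range of -1.97 to 3.003, and Acta1 and Ckm, the muscle actin and creatine kinase, had ratios of -1.09 and -0.93. Adipocyte markers summed to 439 and 1282 CPM, with 3 of 11 called higher and 2 lower and a median log2 ratio of 0.28. Without Plin4, which had 174 and 877 CPM, the hip sums were 265 and 405 CPM, and Lep, called lower, had 120 and 4 counts. Tendon and fibroblast markers summed to 1056 and 269 CPM, with 4 of 7 called lower, and osteoblast and osteocyte markers to 916 and 218 CPM, with 5 of 10 called lower and 1 higher. Of 8 macrophage markers 5 were called lower and 1 higher in the hip, and all 9 erythroid markers were lower beyond their intervals, 4 of them called. Of the hip neutrophil markers 1 of 8 was called, higher, and of the endothelial markers 0 of 7. In the knee, all 20 muscle markers were higher beyond their intervals and 12 were called, as were all 11 adipocyte markers with 5 called, and 10 of 13 chondrocyte markers were called lower. All 6 superficial zone cartilage markers were higher beyond their intervals there, 3 of them called, and 4 of 7 osteoclast markers were called lower. The knee sums were 14077 and 29492 CPM for muscle and 745 and 1342 CPM for adipocytes, and those of the 9 erythroid markers matched took 9.99% and 4.94% of the counts. Their part in the ratios of the signaling genes was not tested.

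The rest of the pathway was read from 9 lists with 107 genes, the members left out. In the hip 102 of them passed the count filter, of which 31 were called higher and 9 lower, a median log2 ratio of 0.38, where 20.2% and 16.3% of all genes were called. In the knee 101 passed, with 8 called higher and 1 lower and a median of 0.24, where 9% and 6.81% of all genes were called. With the trend removed the hip calls were 18 higher and 10 lower, where 13.8% and 15.8% of all genes were, and the knee calls were 6 and 3, where 9.47% and 5.19% were. The plot of the lists shows each gene. Genes named below that hold under 100 counts, or that lie outside the largest ratios of a list, were named after their values were seen.

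**Figure D5:**
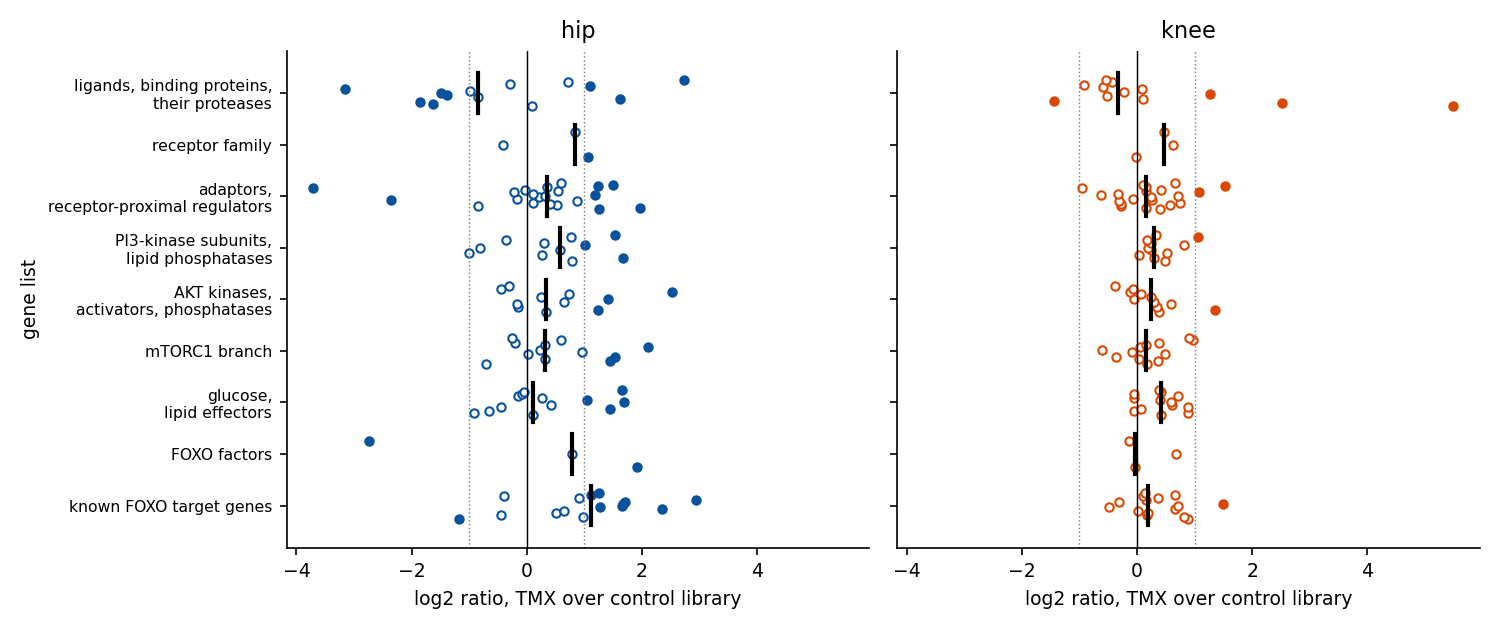
Log2 ratio of TMX over control (x axis) for the genes of 9 pathway lists (rows) in the hip and the knee, with filled points for called genes, open points for the others and a bar at the median of each list. In the hip the list of FOXO target genes has the highest median (1.12) and that of ligands and binding proteins the lowest (-0.85), and in the knee most points lie between the dotted lines at a log2 ratio of 1 in size. The rightmost knee point is Igf2, whose place depends on the 0.5 added to each count because its control library had 0.

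Among ligands, binding proteins and their proteases, 13 of 15 genes passed in the hip, with 3 called higher, 5 lower and a median of -0.85. Of all hip genes, 20.2% were called higher and 16.3% lower. The IGF-binding proteins, which hold IGFs in matrix and blood and limit their access to receptors, did not move together. Igfbp2 had hip counts of 105 and 25 (log2 ratio -1.85) and knee counts of 333 and 155 (-1.44). Igfbp3 had hip counts of 427 and 1142 (1.62) and knee counts of 647 and 878 (0.10), called in the hip. Igfbp5 went in opposite directions, from 21152 to 7082 counts in the hip (-1.38) and from 6535 to 19976 in the knee (1.27). The other genes called lower in the hip were Igfbp6, Igfals and Ins1, the last with 25 and 2 counts. Stc2, an inhibitor of the protease that frees IGFs from a binding protein, rose from 267 to 1541 counts in the hip (2.72) and had 290 and 251 in the knee (-0.55). Pappa, which encodes that protease, was the third gene called higher in the hip, from 20 and 38 counts. Pappa (0.35), Igfbp6 (-0.75) and Igfals (-0.97) were no longer called in the hip with the trend removed, while Igfbp7 in the hip (-1.09) and Pappa2 in the knee (-1.14) were then called lower.

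In the knee 12 of the 15 passed, with Igfbp5, Igfals and Igf2 called higher and Igfbp2 lower. Igf2, the fetal growth factor, had 0 and 28 counts there. Set against a floor of 3 counts in the control that is 7.38-fold, a value that leaves out counting error. The counting interval of the log2 ratio begins at 2.49, which is a smaller fold. In the hip Igf2 had 1345 and 1247 counts, a log2 ratio of 0.09. The trend-removed hip ratio was 0.31 (0.20 to 0.42). The hip and knee counts were not made in the same way, and their levels are not compared.

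Of the receptor list, 3 of 4 genes passed in each joint. Ide, the insulin-degrading enzyme, was called higher in the hip with 2738 and 5006 counts (log2 ratio 1.07, and 0.36 with the trend removed), and 0 were called in the knee. Among 22 adaptors and receptor-proximal regulators, 21 passed in each joint, with 5 called higher and 2 lower in the hip and 2 higher in the knee. Over all genes, 20.2% and 16.3% were called higher and lower in the hip, and 9% were called higher in the knee. Socs1, a feedback inhibitor of cytokine and insulin receptors, had hip counts of 112 and 7 (-3.71) and knee counts of 581 and 379 (-0.96). Grb14, which encodes an inhibitor of the insulin receptor kinase, fell from 2708 to 461 counts in the hip, a log2 ratio of -2.36 (-2.50 to -2.21) that was -3.15 with the trend removed, and had 424 and 642 in the knee (0.26). Cblb, a ubiquitin ligase, rose from 406 to 1380 counts in the hip (1.96), and Sos1, Cbl and Ptpn2 were also called higher there, of which Ptpn2 had a log2 ratio of 1.19 that was -0.16 with the trend removed. In the knee Sh2b1, which enhances receptor kinase activity, had 896 and 2400 counts (1.08). Once the trend was removed, 2 of these genes were called higher and 2 lower in the hip, where Sos1 (0.43) and Cbl (0.54) lost their calls. In the knee Sh2b1 (0.86) then lost its call, and Socs1 was called lower (-1.04, -1.24 to -0.86).

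The PI3-kinase and lipid phosphatase list had 11 of 11 genes pass in both joints, with 3 called higher in the hip and 1 in the knee and 0 lower. Over all genes, 20.2% were called higher in the hip and 9% in the knee. Inpp4b, which encodes a phosphatase of these lipids, had 223 and 620 counts in the hip (log2 ratio 1.67), and Pik3cg, with 42 and 74 counts (1.01), was also called. The trend-removed ratio of Inpp4b was 0.32, and then 0 of the 11 genes were called in the hip. In the knee Pik3r3, a regulatory subunit gene, had 84 and 222 counts (1.06), and with the trend removed 0.93, which was not called.

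For AKT kinases, activators and phosphatases, 3 of 11 were called higher in the hip and 1 in the knee, and 0 lower. For this list and the next, the shares of all genes called higher were 20.2% in the hip and 9% in the knee. Rictor, a subunit of the kinase complex that phosphorylates AKT, rose from 133 to 669 counts in the hip (log2 ratio 2.52, and 1.23 with the trend removed), and had 764 and 885 in the knee (-0.13). Pdpk1, which encodes the other kinase that activates AKT, had 840 and 1959 in the hip (1.42, and 0.68 with the trend removed, not called). In the mTORC1 branch, which controls protein synthesis, 3 of 12 genes were called higher in the hip and 0 in the knee, and 0 lower. They were the kinase gene Rps6kb1 (367 and 1387 counts, 2.11), the translation repressor gene Eif4ebp1 (3147 and 7897, 1.52) and Deptor, which encodes an inhibitor of mTOR (731 and 1730, 1.44). Deptor was not called with the trend removed (0.52), and Rps6kb1 (1.06) and Eif4ebp1 (1.21) were.

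Of 13 glucose and lipid effectors, 4 were called higher in the hip and 0 lower, where 20.2% and 16.3% of all genes were. In the knee 0 were called, where 15.8% of all genes were. Pde3b, which encodes the enzyme by which insulin limits lipolysis, had 90 and 254 counts in the hip (1.69). Tbc1d4, an AKT substrate that holds back glucose transporter traffic, had 1907 and 5218 (1.65), Gsk3b 1254 and 2971 (1.44), and Rab10 was the other. Pde3b (0.92), Gsk3b (0.72) and Rab10 (0.73) were not called with the trend removed, Tbc1d4 (1.11) was, and Fasn, the fatty acid synthase gene, was called lower (-1.05). Slc2a4, the gene of the insulin-responsive glucose transporter of muscle and fat, had hip counts of 29833 and 23286 (-0.16, and 0.20 with the trend removed) and knee counts of 2460 and 5098 (0.71), and was not called.

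Of the 9 lists, known FOXO targets had the highest median in the hip, 1.12. Foxo3 had 877 and 2897 counts in the hip, a log2 ratio of 1.92, close to that of Foxo1 (1.88), and 4222 and 5190 in the knee (-0.04). With the trend removed the hip ratios lay further apart, at 1.77 for Foxo3 and 1.34 for Foxo1. By median transcript they were 2.36 and 1.63. Foxo6 was called lower in the hip, from 774 to 100 counts (-2.75). Of 16 known FOXO target genes 15 passed in each joint, and 8 were called higher and 1 lower in the hip, where 20.2% and 16.3% of all genes were. The same numbers with the trend removed were 8 and 2. Sesn1, a stress-response inhibitor of mTORC1, rose from 992 to 6613 counts (2.93), Fbxo32, the ubiquitin ligase of muscle wasting, from 4552 to 20224 (2.35), and Pdk4, which limits glucose oxidation, from 10462 to 29927 (1.71). Bcl6 was the gene called lower. In the knee Pck1, the gluconeogenic enzyme gene that fat cells also express, was the gene called, with 367 and 1309 counts (1.49), while Fbxo32 had 581 and 1166 (0.66) and Pdk4 1018 and 1032 (-0.32). Pck1 was not higher in the knee alone: its hip ratio with the trend removed was 2.09.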

How the data were processed

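The authors deposited raw read counts per Ensembl gene, whole numbers without normalization, for 4 poly-A libraries. Their methods name STAR and GRCm39, while the submitters' processing notes list STAR 2.0, FastQC 0.11.3 and mm10. The hip files end with HTSeq summary lines, left out here (25.8% and 24.6% of the reads listed), and the counting program of the knee is not given in the sources used here, so ratios were taken only within a joint. Whether counting used strand is not given. Genes on the opposite strand share up to 7.27% of a member's exon bases in the annotation. The extraction note names osteoblasts, and the tissue labels articular cartilage. Counts on genes ranged from 34264456 to 38473120, so that a floor of 3 counts is 0.0780 to 0.0876 CPM.

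Identifiers were matched to GENCODE M39 (91.8% of the hip and 92.6% of the knee). TMM factors came from edgeR 4.0.16 over all genes of a pair, with 0.5 added to each count for the ratio, in R 4.3.3, and the rest was done in Python 3.11.15 with scipy 1.17.1. To remove the trend, genes were put in 20 bins by longest transcript, the median ratio of each bin was subtracted, the same was done by GC content, and both steps were run 2 times. DESeq2 1.42.0 gave size factors as an alternative. The paired DESeq2 test of the authors needs replicates and was not run. Members, lists and alternatives were chosen with earlier results of these data known. Of each pathway list, at most 3 genes per joint were named by rule, the called ones with the largest ratios, provided that 1 library of the pair reached 100 counts. Other genes were named after their values were seen. The ratio, its interval, the call rule and the trend removal were tested on simulated Poisson counts. These were scaled by library totals, so TMM was not part of the test. A length trend was simulated in the hip only, and no GC trend. In each simulation 200 of 200 changed genes were recovered, and 0.79% to 0.857% of the unchanged genes were called. Results for some pathway genes are not reported here.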

Additional observations from a re-analysis of the deposited data

Results flagged for a closer look

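Several of the genes named in the report went in opposite directions in the hip and the knee, each beyond its counting interval, and the difference was not tested because each joint has 1 pair of libraries. Among the 10 signaling genes these were Igf1r (log2 ratio 1.37 in the hip and -0.23 in the knee), Pik3ca (1.73 and -0.20), Akt2 (-0.65 and 0.22) and Foxo1 (1.88 and -0.25). In the pathway lists 29 of 101 genes (28.7%) did so, including genes not named here, and 37 (36.6%) were higher in both joints, where 20.5% and 18.1% of all genes tested in both were. Of those named, among ligands and binding proteins they were Igfbp5 (-1.38 and 1.27), Igfals (-1.62 and 2.53), Stc2 (2.72 and -0.55), Pappa (1.11 and -0.60) and Igfbp7 (-0.99 and 0.079), of which Igfbp5 and Igfals were called in both joints. Of the regulators and effectors they were Grb14 (-2.36 and 0.26), Ptpn2 (1.19 and -0.63), Sh2b1 (-0.22 and 1.08), Eif4ebp1 (1.52 and -0.37), Fasn (-0.91 and 0.88) and Slc2a4 (-0.16 and 0.71), and of the FOXO targets Pdk4 (1.71 and -0.32) and Bcl6 (-1.18 and 0.89). The muscle markers Acta1 (-1.09 and 0.90) and Ckm (-0.93 and 0.98), the adipocyte marker Lep (-4.55 and 1.52) and Cbfb (0.41 and -0.071) did the same. These markers do not stand for their lists. In the hip, 9 muscle markers were higher and 10 lower beyond their intervals, and 6 adipocyte markers were higher and 3 lower. In the knee all 20 muscle and all 11 adipocyte markers were higher. With the length and GC trend removed, Akt2 (-0.81 and -0.08), Ptpn2 (-0.16 and -0.74) and Slc2a4 (0.20 and 0.61) no longer had opposite signs, Igfbp7 had -1.09 and -0.12, Cbfb had both signs turned (-0.21 and 0.087), and the hip intervals of Sh2b1 (-0.11 to 0.04), Pappa (-0.45 to 1.23) and Igfals (-2.28 to 0.07) included 0. Igfals was then called in the knee only. Under scaling by library size alone the knee intervals of Igf1r, Pik3ca and Foxo1 included 0.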

How the results depend on the processing

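Under scaling by DESeq2 size factors, by library size alone and by TMM without muscle, erythroid and mitochondrial genes, other pseudocounts and other count filters, the 10 signaling genes kept the sign of their ratios in both joints, though with library size alone the knee intervals of Igf1r, Pik3ca and Foxo1 included 0. In the hip, Pik3r1 ranged from 3.49 to 3.61 and Insr from 1.94 to 2.06, and in the knee Irs1 from 1.80 to 2.04. Once the trend was removed, Pik3r1 was 2.87 by longest and 3.94 by median transcript, and Insr 1.35 and 2.53. Library size alone moved the knee median of all genes by 0.18 and the share of called genes that were higher from 56.9% to 71.3%, with 14 pathway genes called, 13 of them higher, a members' median of 0.37 and Cbfb at 0.11. With at least 10 counts in each library, 4479 hip and 2013 knee genes were called. With the trend by longest transcript removed, 46.6% of called hip genes and 64.6% of those in the knee were higher, against 55.4% and 56.9%. In the hip 18 pathway genes were then higher, 1 member was lower and the members' median was 0.92, with Cbfb at -0.21, Ptpn2 at -0.16 and Slc2a4 at 0.20. In the knee 3 pathway genes were then lower, the members' median was -0.042, Igf2r -0.14, Irs2 -0.0022, Akt2 -0.081, Cblb -0.027, Igfbp7 -0.12 and Cbfb 0.087. With the trend by median transcript length removed, 19 hip pathway genes were higher, 1 member lower, the median 1.24, Cbfb -0.40, Pik3r3 -0.030, Sh2b1 0.0013, Slc2a4 0.10 and Col2a1 0.032, and in the knee 5 and 2 pathway genes were higher and lower, with a median of 0.043, Akt2 at -0.048, Igfbp7 at -0.19 and Cblb at -0.094. With a 1.5-fold rule, 62 of 102 hip pathway genes were called, 17 of them lower, where 51.6% of all genes were, and 1 member (Akt2) was lower. In the knee that rule called 6349 genes (30.0%), 33 of the pathway (27 higher, 6 lower) and 2 members, both higher. The causes were not tested. TMM factors from genes with at least 10 counts, the directions by joint with either trend removed and over all genes, the knee intervals under library size alone and the adipocyte sum without Plin4 were added after seeing the data.

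With 1 library per condition leaving out a replicate was not possible and DESeq2 gave size factors only. No paired analysis was possible because each condition has 1 library and the labels carry no replicate numbers. Intervals cover counting error only, and reads without molecular identifiers are not independent molecules. The spread between mice was not measured, and genes under 100 counts, such as Irs1 in the knee control (82), have the widest intervals.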
